A study of Mus musculus with 8 samples.

Results

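The transcription factor p53, encoded by Trp53, and 9 of its best known target genes were followed in cultured mouse mesenchymal stem cells after exposure to ropivacaine, a local anaesthetic of the amide class that acts on sodium channels of nerve cells. The genes were chosen by Ensembl identifier, and all 10 were found among the 17592 genes measured. They are Trp53, its inhibitor Mdm2, the cell cycle genes Cdkn1a, Ccng1, Btg2 and Gadd45a, the apoptosis genes Bax, Bbc3 and Pmaip1, and the stress gene Sesn1. The rule uses identifiers only and no measured value.

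RNA came from bone marrow cells of the strain labelled C57B6/J that had been expanded in culture to passage 10. Both groups were collected at 24 h, and each comprised 4 arrays: a control group without treatment and a group given ropivacaine. The sample annotation gives the dose as 100 uM, whereas the treatment protocol reads 100 mM. The micromolar dose was taken here. Separate cultures or animals are not stated for the arrays, so a p-value here reflects the scatter of these 4 and 4 samples alone, possibly technical. The cell type is as labelled. Its surface markers were not analysed here, because only the identifiers of the p53 genes were paired with names.

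In unstressed cells p53 protein is kept low by Mdm2, a ubiquitin ligase that marks it for degradation and that is itself a p53 target, which closes a negative feedback loop. DNA damage and other stresses stabilise the protein, which then binds response elements near its target genes and raises their transcription. Since the control acts largely on the protein, the level of Trp53 mRNA does not report p53 activity, and the target transcripts are the usual readout at the RNA level. A response element consists of a pair of decamers, each made of purines, a C, a pair of A or T bases, a G and pyrimidines. The decamer is its own reverse complement, so a match on one strand is a match on both.

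The decamer was searched in RefSeq promoter windows of assembly GRCm38.p6, which run from 250 bases before to 50 bases after an annotated start. No mismatch was allowed. Of the 10 genes, 9 had at least 1 window, and they had 13 windows in all, some of which overlap in Bbc3. Pmaip1 had no window and was not searched. A decamer was found in 7 of these 13 windows, in 1 window each of 7 genes, while 8.36% of all 32851 windows held one. The windows of Btg2 (gene at chr1:134074865-134079155) and Bbc3 (gene at chr7:16308398-16318334) held no match. A pair of decamers with a spacer of at most 13 bases was found in 1 of the 13 windows, at the upstream start of Cdkn1a, and in 24 of all windows. Known elements of Mdm2 and Gadd45a lie in introns, outside these windows. For any gene, an element outside the windows or with a mismatch would not be found. The lack of a match in Btg2 and Bbc3 therefore does not show that they lack an element. A match describes the letters only and is no evidence of binding in these cells.

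The window of Cdkn1a, the classic transcriptional target of p53, is shown whole because it held the pair, separated by 12 bases. It lies at chr17:29090729-29091028 on the plus strand, and capitals mark the exact matches. The bases right after the downstream match, tgacatgttc, miss the decamer only at their first base and stay in lower case. Which stretches p53 binds, and with what spacer, cannot be read from the capitals.
Cdkn1a: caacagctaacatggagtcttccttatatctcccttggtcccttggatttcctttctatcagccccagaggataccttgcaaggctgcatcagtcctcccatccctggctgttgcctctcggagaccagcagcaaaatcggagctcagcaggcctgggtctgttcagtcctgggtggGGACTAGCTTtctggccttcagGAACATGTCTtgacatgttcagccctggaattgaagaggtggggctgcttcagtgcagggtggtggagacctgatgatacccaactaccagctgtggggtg

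The window of Gadd45a is also shown whole, because this gene had the largest difference between the groups. It lies at chr6:67037358-67037657 on the minus strand and is written 5′ to 3′ on the gene strand, with the decamer in capitals.
Gadd45a: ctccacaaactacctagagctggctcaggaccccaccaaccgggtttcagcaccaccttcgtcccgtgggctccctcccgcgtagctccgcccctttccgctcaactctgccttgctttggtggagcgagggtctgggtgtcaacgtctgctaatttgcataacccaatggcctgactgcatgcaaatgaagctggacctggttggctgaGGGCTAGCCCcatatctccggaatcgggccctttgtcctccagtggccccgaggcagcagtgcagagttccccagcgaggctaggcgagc

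The other matches are shown with 15 bases on either side so that the decamers can be compared, again in capitals and 5′ to 3′ on the gene strand. They lie at chr11:69580269-69580308 (plus) for Trp53, chr10:117710920-117710959 (minus) for Mdm2, chr11:40755447-40755486 (minus) for Ccng1, chr7:45467075-45467114 (minus) for Bax and chr10:41887251-41887290 (plus) for Sesn1.
Trp53: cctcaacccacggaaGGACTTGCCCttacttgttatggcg
Mdm2: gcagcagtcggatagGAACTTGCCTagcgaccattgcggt
Ccng1: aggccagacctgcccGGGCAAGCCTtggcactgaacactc
Bax: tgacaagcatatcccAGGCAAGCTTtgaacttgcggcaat
Sesn1: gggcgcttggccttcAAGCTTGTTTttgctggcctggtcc

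**Figure D1:**
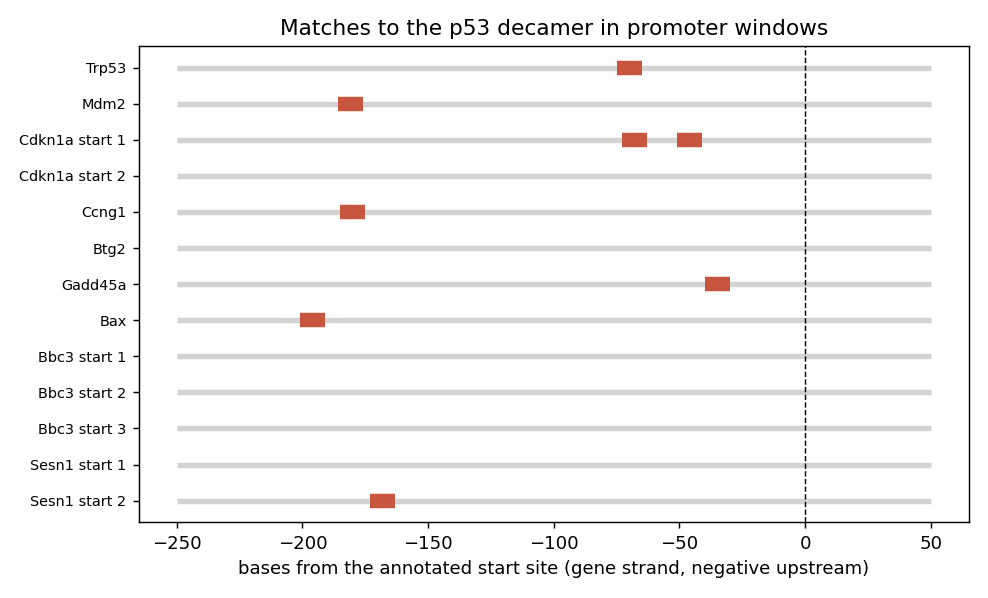
Each grey bar is 1 promoter window of a gene and each red block a match to the p53 decamer, placed by its distance in bases from the annotated start (dashed line, negative upstream). Matches lie in 7 of 13 windows, and the upstream start of Cdkn1a is the only window with a pair.

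With ropivacaine, none of the 10 genes passed the threshold for a difference. The count was 0 of 10 in limma at a Benjamini-Hochberg adjusted p below 0.05 over all genes, where 0.404% of all genes passed (0.284% higher and 0.119% lower with ropivacaine). Before adjustment, 2 of the 10 had a limma p below 0.05, against 9.74% of all genes. These were Gadd45a, with a higher level (5.34% of all genes in that direction), and Btg2, with a lower one (4.41%). The groups did not overlap in 1 of the 10, Gadd45a, against 6.7% of all genes in either direction and 3.54% with ropivacaine higher. The log2 fold change was above 0 in 4 genes and below 0 in 6. Its median over the 10 was -0.03, against -0.0047 over all genes, and the median size regardless of sign was 0.046 against 0.055. In bulk RNA of this kind, fewer cells with a transcript and less of it per cell cannot be told apart.

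The 95% intervals show how precisely each difference was estimated from these arrays. They reflect the scatter of these samples, possibly technical, and are not adjusted for the number of genes tested. Across the 10 genes the 95% intervals of the log2 fold change reached down to -0.31 and up to 0.35, so that changes beyond a 1.24-fold fall or a 1.27-fold rise lay outside all of them. The half-width of the intervals ran from 0.083 for Bax to 0.16 for Pmaip1. In 9 of the 10 genes the residual SD within groups was smaller than the median of all genes, 0.09 on the log2 scale. Ordered by mean array signal, 6 of the genes lay above the upper quartile of all genes (8.41), 3 between it and the median (6.91), 1 between the median and the lower quartile (5.72) and 0 below. Array signal depends on the probes and is not a measure of transcript abundance between genes. Whether a gene exceeds background is unknown.

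**Figure D2:**
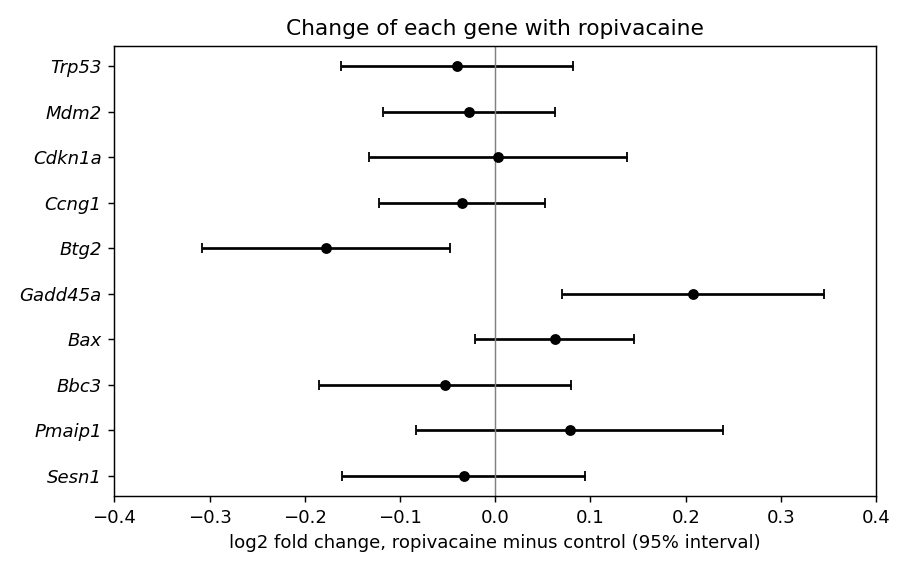
Points give the log2 fold change of each gene (ropivacaine minus control, 4 arrays each) and bars the 95% interval from limma. Of the 10 intervals, 8 hold 0, and those of Btg2 and Gadd45a do not, before any adjustment for the number of genes tested.

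Trp53 (ENSMUSG00000059552) itself differed little. Its log2 expression was 10.16, 10.25, 10.19 and 10.34 on the control arrays, and 10.19, 10.12, 10.19 and 10.28 with ropivacaine. All but 1 of the ropivacaine values lay within the control range. The log2 fold change was -0.04 (SE 0.053, 95% interval -0.16 to 0.082, limma adjusted p = 0.876). With 1 array left out it ran from -0.0683 (without ropivacaine replicate 4) to -0.005 (without control replicate 4), and without ropivacaine replicate 2 it was -0.015.

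Mdm2 (ENSMUSG00000020184), the feedback inhibitor, gave 10.50 on each of the 4 control arrays. The deposited values are rounded to 0.01 at this brightness, so these arrays were equal only to that step, and the SD of 0 does not measure their spread. With ropivacaine the values were 10.50, 10.39, 10.48 and 10.52. The lowest came from ropivacaine replicate 2, and the other 3 lay within 0.02 of the control value. The log2 fold change was -0.0275 (SE 0.04, 95% interval -0.12 to 0.063, limma adjusted p = 0.882), and without ropivacaine replicate 2 it was 0.

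Cdkn1a (ENSMUSG00000023067) encodes the cyclin-dependent kinase inhibitor p21, which halts the cell cycle. Its control values were 11.30, 11.38, 11.36 and 11.38, and its values with ropivacaine were 11.48, 11.21, 11.34 and 11.40. The ropivacaine arrays thus surrounded the controls, with 2 above the highest and 1 below the lowest. The SD was 0.038 in the control group and 0.11 in the ropivacaine group (n = 4 each), a difference in spread that was not tested. The means were 11.36 for both groups after rounding, and the log2 fold change was 0.0025 (SE 0.059, 95% interval -0.13 to 0.14, limma adjusted p = 0.995). Its sign changed when control replicate 1, ropivacaine replicate 1 or ropivacaine replicate 4 was left out, giving -0.0158, -0.0383 and -0.0117.

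Ccng1 (ENSMUSG00000020326) encodes cyclin G1, which recruits a phosphatase that acts on Mdm2. Control arrays read 12.50, 12.43, 12.50 and 12.44, and ropivacaine arrays 12.42, 12.39, 12.47 and 12.45. The groups overlapped, with 2 ropivacaine values just below the lowest control. Its log2 fold change was -0.035 (SE 0.038, limma adjusted p = 0.836), and with 1 array left out it ran from -0.0475 to -0.0208, the latter without ropivacaine replicate 2.

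Btg2 (ENSMUSG00000020423), an antiproliferative gene whose product recruits the mRNA deadenylation machinery, was the member with the lowest log2 fold change. It read 8.897, 9.115, 9.005 and 8.939 on the control arrays and 8.900, 8.804, 8.764 and 8.777 with ropivacaine. All 4 ropivacaine values were below the control mean, and the groups overlapped by the narrow margin between control replicate 1 and ropivacaine replicate 1. Mean levels were 8.99 ± 0.095 (SD, n = 4) for control and 8.81 ± 0.062 (SD, n = 4) for treated arrays. A log2 fold change of -0.18 (SE 0.057, 95% interval -0.31 to -0.048) corresponds to a 1.13-fold lower level and did not pass (limma adjusted p = 0.331, unadjusted p = 0.0132). Among all genes, 90.3% had a smaller change in either direction.

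Gadd45a (ENSMUSG00000036390), which takes part in growth arrest and DNA repair and is induced by several stress pathways besides p53, had the largest difference of the 10. Control values were 8.177, 8.202, 8.246 and 8.026, and ropivacaine values 8.273, 8.396, 8.457 and 8.355. Every ropivacaine array was above every control array, with a gap of less than the SD of either group between the highest control and the lowest treated array. Mean levels were 8.16 ± 0.096 (SD, n = 4) for control and 8.37 ± 0.077 (SD, n = 4) for treated arrays. The resulting log2 fold change was 0.21 (SE 0.06, 95% interval 0.07 to 0.35), a 1.16-fold higher level that did not pass (limma adjusted p = 0.281, unadjusted p = 0.00807). By p-value Gadd45a ranked 504 among the 17592 genes, and Btg2 ranked 698. The 71 genes that passed had changes of at least 0.22 in size and a median residual SD of 0.06, against 0.087 for Gadd45a. Passing selects for a large change and a small residual SD, so this contrast follows from the selection. Of all genes, 47.6% had a smaller residual SD than Gadd45a.

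**Figure D3:**
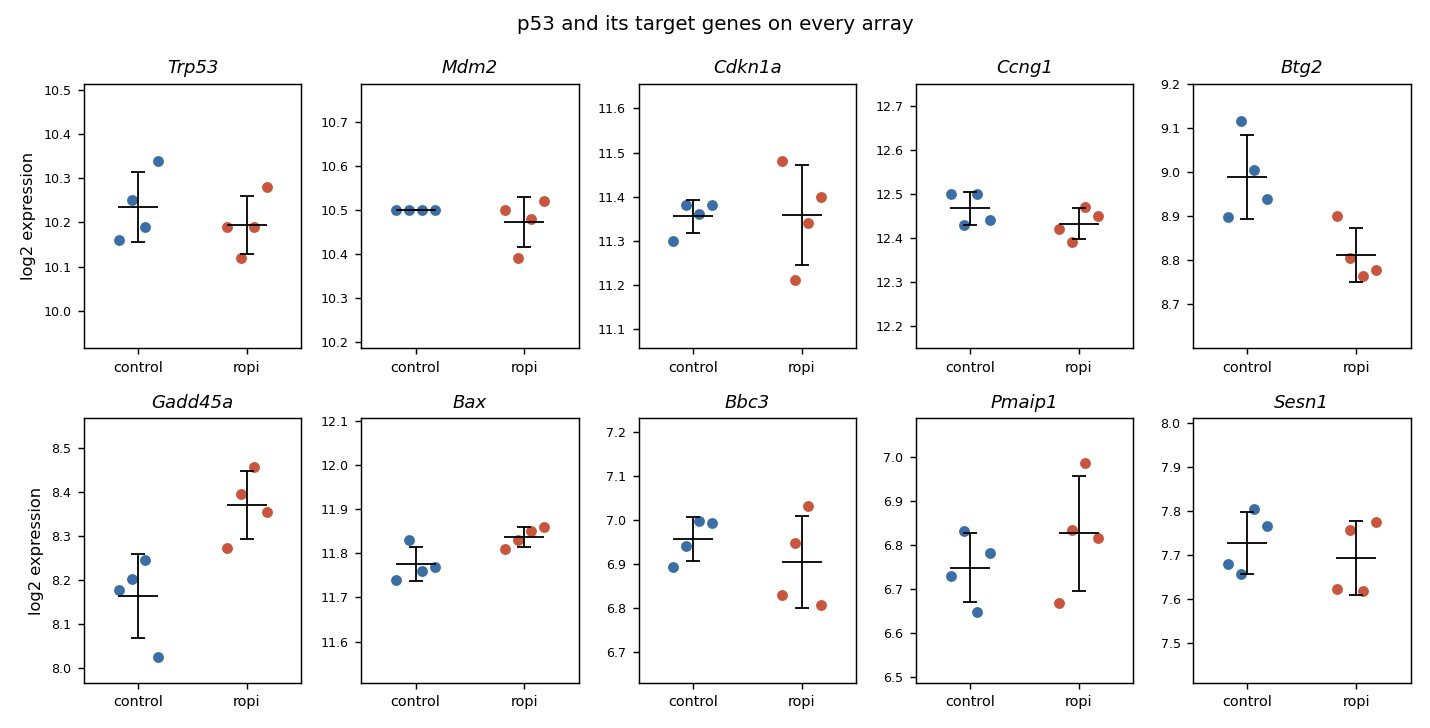
Log2 expression of each gene on the 4 control and the 4 ropivacaine arrays, ordered by replicate from left to right within a group, with the mean (line) and SD (bars). Every panel spans 0.6 on the log2 scale, and Gadd45a is the only panel in which the groups do not overlap.

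Of the apoptosis genes, Bax (ENSMUSG00000003873) encodes a protein that permeabilises the outer mitochondrial membrane. It read 11.74, 11.83, 11.76 and 11.77 in control and 11.81, 11.83, 11.85 and 11.86 with ropivacaine. All 4 treated arrays lay above the control mean, and 2 of them above the highest control. Its log2 fold change was 0.0625 (SE 0.037, 95% interval -0.021 to 0.15, limma adjusted p = 0.643), a 1.04-fold difference in level. The groups overlapped only through control replicate 2, and without it all 4 treated arrays lay above the controls while the difference still did not pass. With that array left out, 9.83% of all genes had groups that did not overlap.

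Bbc3 (ENSMUSG00000002083) encodes Puma and Pmaip1 (ENSMUSG00000024521) encodes Noxa, BH3-only proteins that promote apoptosis by binding Bcl2 family members. For Bbc3 the control values were 6.893, 6.941, 6.998 and 6.994, and the ropivacaine values 6.830, 6.948, 7.031 and 6.807. The treated arrays spread to both sides of the controls, and the log2 fold change was -0.0525 (SE 0.058, 95% interval -0.18 to 0.08, limma adjusted p = 0.84). It was -0.0948 without ropivacaine replicate 3 and -0.0202 without ropivacaine replicate 4, the extremes with 1 array left out. Pmaip1 read 6.730, 6.830, 6.648 and 6.782 in control and 6.668, 6.833, 6.985 and 6.816 with ropivacaine. Its highest value came from ropivacaine replicate 3, and the groups overlapped. Its log2 fold change was 0.078 (SE 0.071, 95% interval -0.084 to 0.24, limma adjusted p = 0.797). Without ropivacaine replicate 3 it was 0.0248, and without ropivacaine replicate 1 it was 0.1305.

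Sesn1 (ENSMUSG00000038332) encodes a sestrin, a stress protein that restrains mTORC1 signalling. It read 7.679, 7.657, 7.805 and 7.766 on the control arrays and 7.622, 7.757, 7.619 and 7.776 with ropivacaine. In both groups 2 arrays were near the lower and 2 near the upper end of the range. This gave a log2 fold change of -0.033 (SE 0.056, 95% interval -0.16 to 0.094, limma adjusted p = 0.898). Leaving out control replicate 3 gave -0.0072, leaving out ropivacaine replicate 3 gave -0.0084, and leaving out ropivacaine replicate 4 gave -0.0607.

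Single arrays stood at opposite ends for different genes. Ropivacaine replicate 2 was the lowest array for Trp53, Mdm2, Cdkn1a and Ccng1, whereas ropivacaine replicate 3 was the highest for Gadd45a, Bbc3 and Pmaip1 and the lowest for Btg2 and Sesn1. Ropivacaine replicate 3 and control replicate 2 were the arrays with the lowest estimated weights in limma, 0.708 and 0.58. Without both, the log2 fold change was 0.19 for Gadd45a (limma adjusted p = 0.447) and -0.12 for Btg2 (limma adjusted p = 0.544). In that fit the unadjusted limma p of Btg2 was 0.0641. The part of these arrays in the values of the genes was not otherwise tested.

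**Figure D4:**
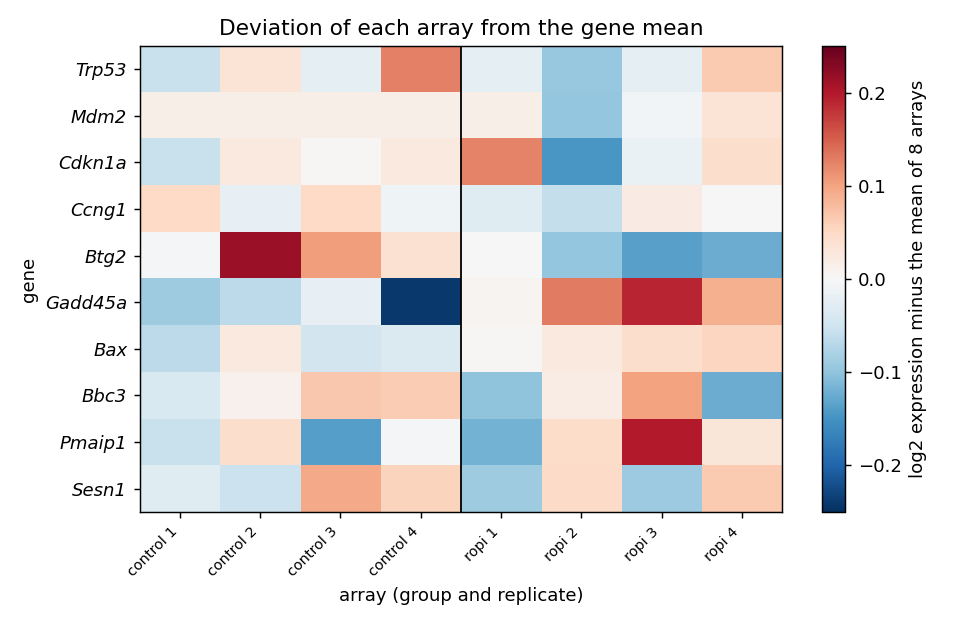
Colour gives the log2 expression of each gene on each array minus its mean over the 8 arrays, red above and blue below, with a line between the control and ropivacaine arrays. In the row of Gadd45a all control arrays are below and all ropivacaine arrays above the mean, with control replicate 4 the lowest at 8.026.

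Levels of Trp53 were compared with those of the 9 targets across the 8 arrays, 9 relations in all. Pearson's r ran from -0.566 for Gadd45a to 0.614 for Mdm2, and Spearman's rho from -0.366 for Gadd45a to 0.712 for Cdkn1a. None passed after Benjamini-Hochberg adjustment over the 9 (exact permutation test over pairings, two-sided, smallest adjusted p = 0.504 for r and 0.415 for rho). The smallest unadjusted values were p = 0.134 for r with Mdm2 and p = 0.0537 for rho with Cdkn1a, by the same exact permutation test. Without the 2 arrays farthest from the median of Trp53, control replicate 4 and ropivacaine replicate 4, r was highest for Btg2 at 0.733. It was lowest for Sesn1 at -0.393. With all 8 arrays r was 0.2425 for Btg2 and 0.239 for Sesn1. Without the 2 arrays r was 0.727 for Mdm2, 0.675 for Cdkn1a and -0.389 for Gadd45a. The smallest adjusted exact permutation p was then 0.487, for Btg2 and Cdkn1a, and that of Mdm2 was 0.8. Taken as deviations from the group means, r was 0.567 for Mdm2, 0.568 for Cdkn1a and -0.574 for Gadd45a. Within a group, 4 arrays are too few for a correlation.

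The differences of Gadd45a and Btg2, the largest among the members, kept their direction when any single array was left out. Groups that do not overlap, as in Gadd45a, cannot change direction in this way. The narrow overlap of Btg2 leaves little room for it, so the kept direction is no sign of stability. With 1 array left out, the log2 fold change of Gadd45a ran from 0.16 without control replicate 4 to 0.24 without ropivacaine replicate 1. That of Btg2 ran from -0.21 without control replicate 1 to -0.14 without control replicate 2. Neither passed the adjusted threshold in any of these fits. Leaving out control replicate 1 or ropivacaine replicate 1 made the groups of Btg2 separate, because these 2 arrays carry the overlap. Of all genes, 11% were separate without the former and 9.23% without the latter.

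**Figure D5:**
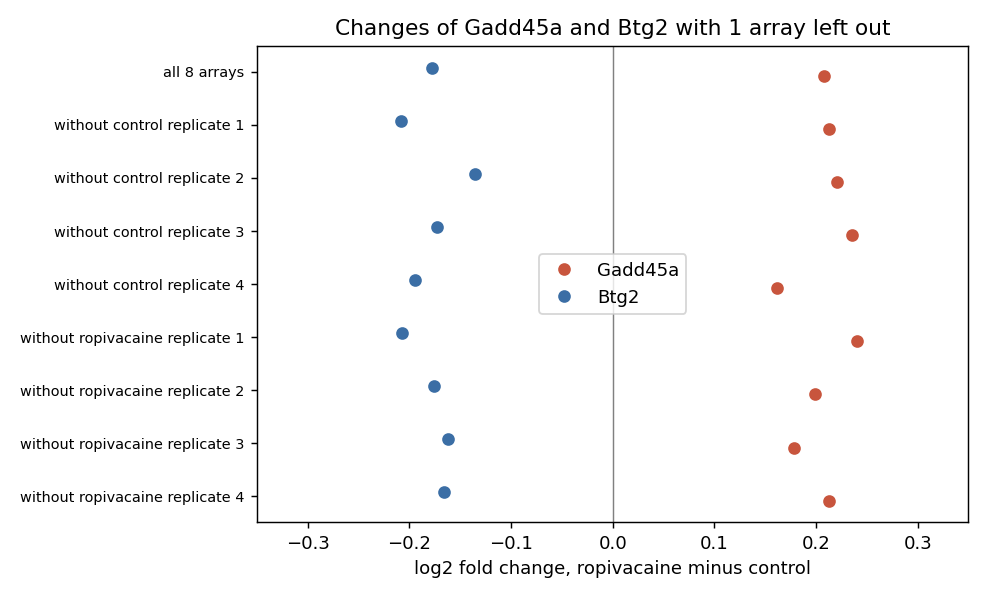
Points give the log2 fold change (ropivacaine minus control) of Gadd45a and Btg2 with all 8 arrays and with each array left out in turn. Gadd45a stays between 0.16 and 0.24 and Btg2 between -0.21 and -0.14.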

How the data were processed

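The 8 samples, 4 per group, were each hybridised to 1 single-colour Affymetrix exon array. Values per gene were deposited by the authors on the log2 scale, and RMA is the tool named in the submitters' processing notes. RMA brings the arrays to a common distribution, which removes overall differences in signal. Its version, the probe set definition and any filter were not stated in the labels. Values are rounded to 0.01 at 10 and above and to 0.001 below. Batches could not be tested without scan dates, and the number of arrays limits the precision. No 2 arrays were identical.

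Groups were taken from the sample titles. All 17592 genes were fitted with limma 3.58.1 in R 4.3.3 (default moderation, two-sided, no covariate), with calls at an adjusted p below 0.05 (Benjamini-Hochberg over all genes). The fit was tested on simulated data. Intervals are 95% intervals from that fit. All 10 genes are named whatever their values. Members and lists were chosen with earlier results of these data known. Lists of other p53 targets, regulators, Bcl2 family genes, paralogues and cell type markers could not be applied, because 0 identifiers matched the reference gene table. The symbols of the 10 genes came with their identifiers. Correlations used exact permutation tests (numpy 2.4.6), and promoter windows came from RefSeq (GRCm38.p6). Alternatives were rescaling (by quantiles or by the median), robust or intensity-trended moderation, leaving out dim genes, weights per array, a block for the replicate number, and leaving out arrays.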

Additional observations from a re-analysis of the deposited data

How the results depend on the processing

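None of the 10 genes was called under any of the 17 alternatives (0 in each), and the smallest adjusted limma p of any of them was 0.123, for Gadd45a without the dimmest 50% of genes, a filter that removed Pmaip1. Of 169 values of single genes, 165 kept their direction and their side of the threshold. The other 4 arose with 1 array left out: Cdkn1a turned to between -0.0383 and -0.0117, within a range of -0.0383 to 0.0517 over such fits, and Mdm2 ran from -0.0433 to 0. The cause was not tested. Moderation, the dim filters and a block holding 1 array of each group cannot alter a log2 fold change. Rescaling left each one unchanged after rounding, since RMA had already brought the arrays to a common distribution. In these fits the direction was thus fixed in advance, and only the side of the threshold could move. The count of all genes called was 71 in the main fit, 135 with an intensity trend and 105 with weights per array. Without the dimmest 25% and 50% of genes, where fewer genes were tested, it was 114 and 179. It was 3 with the replicate number as a block and 7 without both arrays of lowest weight. With 1 array left out it ran from 15 (without control replicate 3) to 31 (without ropivacaine replicate 3). With the replicate block, the adjusted limma p was 0.325 for Gadd45a and 0.452 for Btg2. Same-numbered arrays deviated with correlations of 0.138, 0.009, 0.056 and 0.07, and no label pairs them. The number of the 10 genes with separate groups was 1 to 2 with 1 array left out, where 8.92% to 11.7% of all genes were separate, and 2 without both arrays of lowest weight, where 16.2% were, the second gene being Bax without control replicate 2 or both of those arrays, and Btg2 without control replicate 1 or ropivacaine replicate 1. The correlations of Trp53 that passed were 0 with all arrays and 0 without the 2 farthest. Signal over background was not used here, so dim genes could not be bounded.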
